A study of Mus musculus with 6 samples.

Results

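The 49 genes described here code for the structural part of connective tissue: collagens, small proteoglycans, microfibril proteins, cross-linking enzymes, adhesive glycoproteins, secreted binding proteins, PDGF receptors and contractile proteins. They were taken by gene symbol from the 22377 genes of the deposited count table, and the rule uses no measured value. Of the 49 genes, 44 had enough reads to enter a test across 13884 genes. The 5 genes that did not are Lox, Loxl1, Cnn1, Mfap2 and Mfap5.

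The libraries came from subcutaneous tumors of Lewis lung carcinoma (LLC), a transplantable mouse lung carcinoma line, and the study asked how nucleophosmin (Npm1), a nucleolar chaperone, acts in tumor-associated macrophages. By the study's methods, the tumors grew in young adult mice of both sexes, either Npm1+/+ or Npm1+/-, and the RNA came from their macrophages, gated as CD45+ CD11b+ F4/80+ cells. The mutant hosts keep 1 intact copy of Npm1 in every cell, since loss of both copies kills the embryo, and the implanted LLC cells are not of the host genotype. GEO's labels name tumor tissue as the source and give the treatments wt and knockdown, with 3 libraries each. The labels also describe TRIzol extraction and a library of small RNAs, where the methods describe a column kit and a low-input cDNA kit. A caption of the study speaks of individual mice, but of fewer for each genotype than the 3 libraries deposited. These accounts were not reconciled, so the groups are called wt and knockdown here, with n = 3 libraries.

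In connective tissue, fibroblasts secrete procollagens, which are hydroxylated and folded in the endoplasmic reticulum, trimmed outside the cell and cross-linked by lysyl oxidases into fibrils. Collagen I is the main fibrillar collagen of skin, tendon and most scars, and its chains come from Col1a1 and Col1a2. Collagen III co-assembles with it, collagen V starts the fibrils, and collagens IV and XVIII lie in basement membranes. Activated fibroblasts and smooth muscle cells also carry a contractile apparatus, whose genes are often driven by serum response factor (SRF) through the CArG box, or by TEAD factors through the letters GGAATG.

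Short stretches of promoter are shown for genes whose levels differ in direction below: Cnn2 and Acta2, with estimates under 0, and Cald1, Tpm1, Ccn1, Col3a1 and the scarce Myl9, with estimates above 0. GGAATG stands on both sides, though on the lower side only in Acta2. The CArG box was searched only in the strict form CCWWWWWWGG, where W is A or T. That form stands in Cnn2 and in Myl9, whose estimate (0.49, SE 0.81) was within its error of 0. Looser forms were not searched, so the other genes may hold them. Whether the motifs go with direction cannot be told from so few genes. Capitals mark the match, and each stretch has 30 bases on the strand of its gene. RefSeq promoters on GRCm38.p6, from 250 bases before to 50 bases after the start, were at hand for 35 of the 49 genes (41 promoters). The strict CArG box, searched on both strands, stood in 2 of these 41 promoters (Cnn2 and Myl9) and in 1.63% of all 32851. GGAATG on either strand stood in 9 of 41 and in 14.7% of all, CCAAT in 14 of 41 and in 37.4%, and TATAAA in 8 of 41 and in 13.6%. The searches were run separately and their matches may overlap.
Cnn2, CArG box, chr10:79988534-79988563, plus strand: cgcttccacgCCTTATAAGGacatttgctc
Myl9, CArG box, chr2:156775293-156775322, plus strand: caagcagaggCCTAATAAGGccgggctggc
Acta2, GGAATG, chr19:34255502-34255531, minus strand: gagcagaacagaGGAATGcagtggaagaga
Cald1, GGAATG, chr6:34598339-34598368, plus strand: gagcatgcctagGGAATGacaggcatctgc
Tpm1, GGAATG, chr9:67049252-67049281, minus strand: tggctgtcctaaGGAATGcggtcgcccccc
Ccn1, GGAATG read from the other strand, chr3:145650071-145650100, minus strand: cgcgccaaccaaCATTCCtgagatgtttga
Col3a1, GGAATG read from the other strand, chr1:45311358-45311387, plus strand: tatcacaaagcaCATTCCtatgtgtttctg

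Total counts were close, from 36550775 to 38147320 per library, and 17225 to 19242 genes had at least 1 read. Levels below are CPM (reads of a gene relative to all reads of its library) after TMM scaling, which adjusts for the makeup of each library, or FPKM where genes of different length are compared. A count of 3, taken as the detection floor, corresponds to 0.0716 to 0.0846 CPM. The targeted gene, Npm1, stood at 142, 380.2 and 381 CPM in wt replicates 1 to 3 and at 441, 499 and 343 CPM in knockdown replicates 1 to 3. The libraries labelled knockdown therefore did not hold less Npm1 mRNA: the log2 fold change of knockdown over wt was 0.51 (SE 0.36), and 0.16 (SE 0.18) without wt replicate 1. The directions below are those of the labels.

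No gene of the 44 passed the test, and no gene of the 13884 did (edgeR's quasi-likelihood test, 0% called at an adjusted p under 0.05). The adjusted p of the 44 genes ranged from 0.328 to 0.972 after Benjamini-Hochberg adjustment in edgeR. At an unadjusted p under 0.05, 3 of the 44 were higher in knockdown (Col1a1, Col1a2 and Sned1) against 6.9% of all genes tested, and 1 was lower (Acta2) against 8.31%. The 3 wt and 3 knockdown libraries did not overlap for 3 genes higher in knockdown (Col8a1, Cald1 and Sned1; 13.3% of all genes) and for 1 lower gene (Acta2; 12.6% of all genes). DESeq2 called none of the 49 genes (0.161% of all genes called, and 0.0581% as higher in knockdown). An exact permutation test of 3 against 3 libraries cannot go below p = 0.1.

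The estimates nevertheless lay to one side. The log2 fold change was above 0 for 37 of the 44 genes, against 52.1% of all genes, and its median was 1.06 over the 44 genes and 0.02 over all genes. Without wt replicate 1 the median was 0.58 over the 44 genes and 0.03 over all genes. Wt replicate 1 was the lowest of the 6 libraries for 35 of the 44 genes, against 33.5% of all genes. In libraries made from many cells, fewer cells of a type and less RNA per cell cannot be told apart. The next lowest was usually wt replicate 3, then knockdown replicate 3, then wt replicate 2, with knockdown replicates 1 and 2 at the top: 26 of the 44 genes had exactly this order, against 5.38% of all genes. The order was read from these same genes after their values were seen, so its count is a description. Thus the labels overlap because wt replicate 2 stood above knockdown replicate 3. Without wt replicate 2, 37 of 45 genes tested were higher in every knockdown library than in either remaining wt library, against 23.1% of all genes, and without knockdown replicate 3 the count was 32 of 45, against 26.9%. Without wt replicate 1 it was 4 of 45, against 16.6%. The counts without wt replicate 2 or knockdown replicate 3 follow from the order above, so they too are a description. At an unadjusted p under 0.05 in edgeR, 11 of 45 genes were higher in knockdown without wt replicate 1, against 6.81% of all genes, and 18 of 45 without wt replicate 2, against 9.79%. With another library left out, the count at that p in either direction was small. It was 2 of 45 without wt replicate 3 (16.8% of all genes) and 6 of 45 without knockdown replicate 3 (17.3%). Without knockdown replicate 1 (5.49%) or 2 (4.75%) it was 1 of 44.

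**Figure D1:**
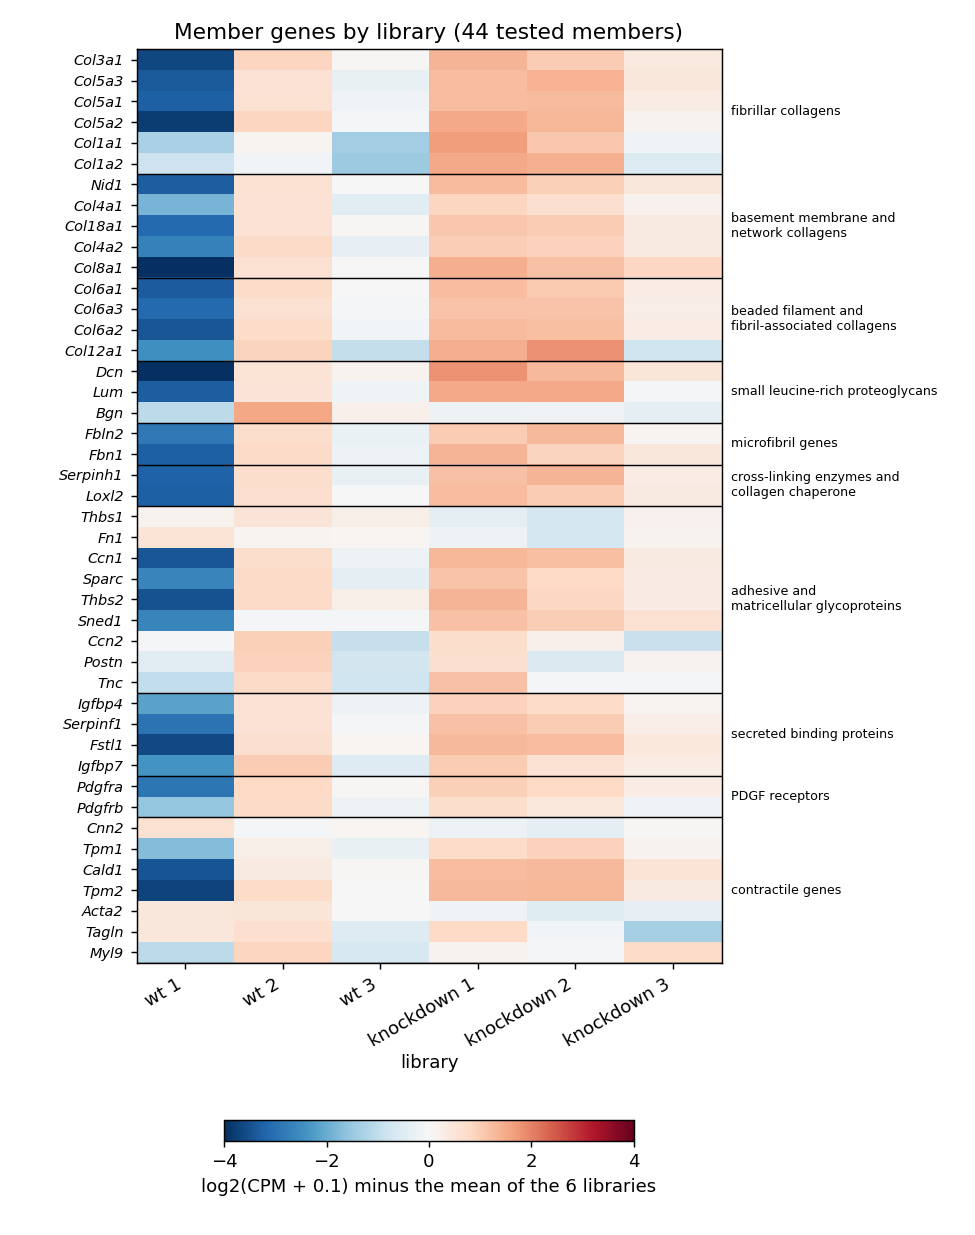
Heat map of the 44 tested genes (rows, grouped by role) in the 6 libraries (columns), as log2 of CPM plus 0.1 minus the gene's mean over the libraries (blue low, red high). Wt replicate 1 is the lowest library for 35 of the 44 rows, while Thbs1, Fn1, Cnn2 and Acta2 do not follow the other rows.

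Among the fibrillar collagens, collagen III and collagen V were plainly present and collagen I was nearly absent. Col3a1 (chr1:45311538-45349706, plus strand, GRCm38), which codes for the collagen III chain, stood at 19.0, 426 and 245 CPM in the wt libraries and at 604, 474 and 308 CPM in the knockdown libraries. Wt replicate 1 was 17.7-fold below the mean of the other wt libraries, and the other wt libraries reached into the knockdown range. The log2 fold change was 1.01 (SE 0.85), with an adjusted p of 0.501 in edgeR after Benjamini-Hochberg adjustment, and 0.46 (SE 0.31) without wt replicate 1. Col5a1, a collagen V chain, stood at 2.42, 37.0 and 22.1 CPM in wt and at 56.6, 57.6 and 29.7 CPM in knockdown. Its order of libraries was close to that of Col3a1, and its log2 fold change was 1.23 (SE 0.77). The other collagen V chains, Col5a2 and Col5a3, had log2 fold changes of 1.18 and 1.40.

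Col1a1 (chr11:94936224-94953042, plus strand) had only 22, 64 and 21 reads in the wt libraries and 217, 150 and 53 reads in the knockdown libraries. Col1a2 (chr6:4504814-4541544, plus strand) had 15, 27 and 9 reads in wt and 102, 101 and 20 reads in knockdown. Both chains were highest in knockdown replicates 1 and 2, while knockdown replicate 3 lay below wt replicate 2. Their log2 fold changes, 1.82 (SE 0.64) and 1.96 (SE 0.68), were the largest of the 44 genes, and both had an adjusted p of 0.328 in edgeR with Benjamini-Hochberg adjustment. Unlike the other fibrillar collagens, they moved little when wt replicate 1 was left out, to 1.57 (SE 0.65) and 1.88 (SE 0.76).

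Per length, Col3a1 averaged 63.9 FPKM over the 6 libraries, at percentile 92.8 of the genes tested, whereas Col1a1 averaged 0.397 FPKM (percentile 16.1) and Col1a2 0.235 FPKM (percentile 10.7). The ratio of Col3a1 to Col1a1 per length was 32.7, 252 and 465 in the wt libraries and 117, 141 and 226 in the knockdown libraries. Collagen III mRNA thus exceeded collagen I mRNA in each library, by a factor that varied widely. The Col1a1 to Col1a2 ratio per length held between 1.29 and 2.33 in the 6 libraries, so the collagen I chains kept close to each other while they left Col3a1.

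**Figure D2:**
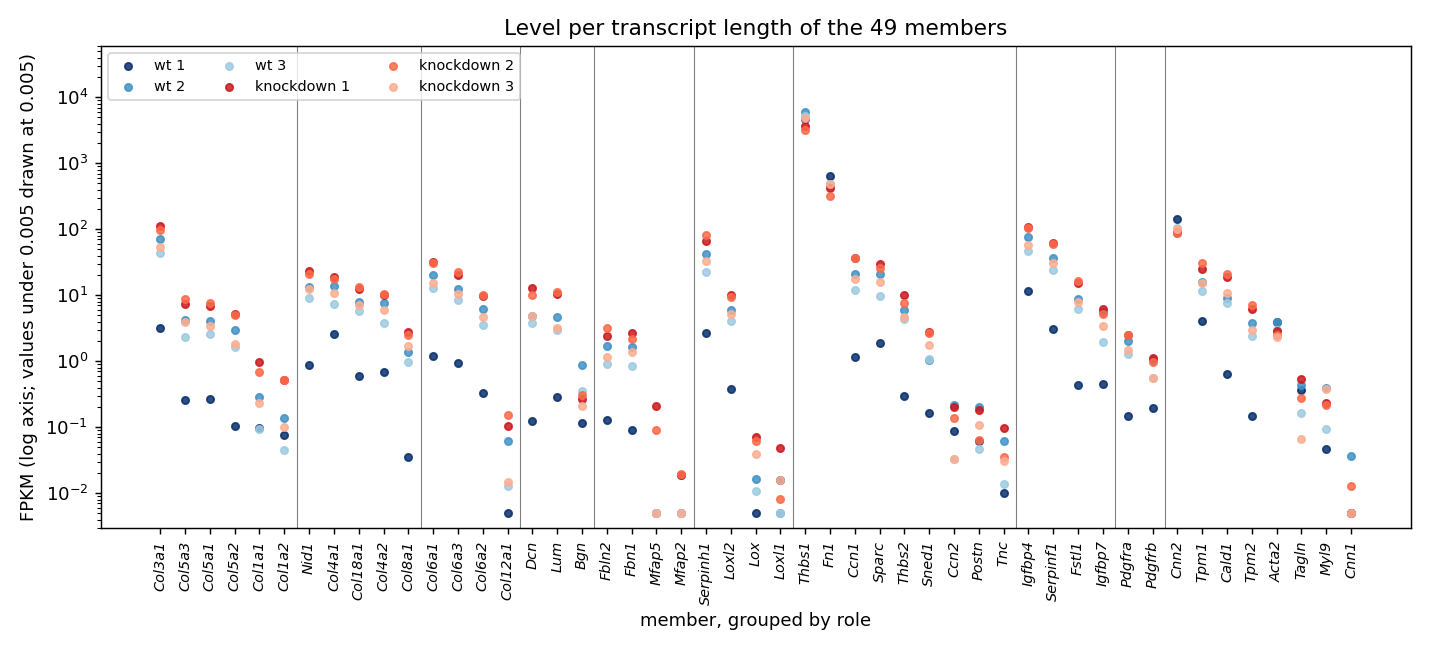
Level of each of the 49 genes in FPKM (log axis, values under 0.005 drawn at 0.005), grouped by role, with 1 point per library (blues, wt; reds, knockdown). Thbs1 and Fn1 lie far above the rest, wt replicate 1 (dark blue) is detached below the other libraries for most collagens, and Col1a1 and Col1a2 lie far below Col3a1.

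All 5 basement membrane and network genes had estimates above 0, with a median log2 fold change of 1.05. Col4a1, a collagen IV chain, stood at 18.2, 98.8 and 49.2 CPM in wt and at 119.5, 103 and 74.6 CPM in knockdown. Nid1, the linker nidogen-1, stood at 5.54, 84.2 and 54.5 CPM in wt and at 133, 108 and 76.2 CPM in knockdown. In both genes wt replicate 2 lay above knockdown replicate 3, so that the groups overlapped. The log2 fold changes were 0.84 (SE 0.52) for Col4a1 and 1.13 (SE 0.76) for Nid1. Col4a2 and Col18a1, the latter the source of endostatin, had log2 fold changes of 0.96 and 1.05. Col8a1, a short-chain network collagen, was the only gene of this group whose groups did not overlap: it stood at 0.197, 7.67 and 5.03 CPM in wt and at 13.6, 11.3 and 8.83 CPM in knockdown, with a log2 fold change of 1.39 (SE 0.90). Col4a1 (chr8:11198423-11312826, minus strand) and Col4a2 (chr8:11312805-11449287, plus strand) are head to head and share bases at their starts, and strand use in the counting is not given in the sources used here.

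Collagen VI forms beaded filaments around cells, from chains coded by Col6a1, Col6a2 and Col6a3. Col6a1 stood at 5.06, 85.7 and 51.8 CPM in wt and at 121, 107 and 62.9 CPM in knockdown. Col6a3 stood at 11.1, 146 and 94.5 CPM in wt and at 212, 213 and 117 CPM in knockdown. The chains repeated the library order of Col3a1, and their log2 fold changes were 1.03 (SE 0.79) and 1.11 (SE 0.74), with 1.14 for Col6a2. Col12a1, a fibril-associated collagen, was close to the floor: it had no read in wt replicate 1 and its highest level was 1.86 CPM, in knockdown replicate 2.

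Of the small leucine-rich proteoglycans, which coat collagen fibrils, Dcn and Lum followed the collagens and Bgn did not. Dcn (decorin) stood at 0.281, 10.8 and 8.18 CPM in wt and at 25.6, 18.4 and 10.4 CPM in knockdown, a log2 fold change of 1.49 (SE 0.93). Lum (lumican) stood at 0.647, 10.4 and 6.31 CPM in wt and at 20.6, 20.6 and 6.87 CPM in knockdown, a log2 fold change of 1.47 (SE 0.83). Wt replicate 1 was 33.8-fold below the mean of the other wt libraries for Dcn and 12.9-fold below it for Lum. Bgn (biglycan) had 11, 84 and 33 reads in wt and 25, 28 and 20 reads in knockdown, and its estimate was -0.94 (SE 0.69). The knockdown reads of Bgn lay inside the wt range, whose low end was wt replicate 1, and below both other wt libraries. Without wt replicate 1 the estimate for Bgn was -1.39 (SE 0.50), with an adjusted p of 0.406 in edgeR after Benjamini-Hochberg adjustment.

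Among the microfibril genes, Fbn1 (fibrillin-1) stood at 0.984, 17.6 and 8.66 CPM in wt and at 26.2, 19.2 and 14.2 CPM in knockdown. Fbln2 (fibulin-2), which binds fibrillin and basement membrane proteins, stood at 0.675, 9.13 and 4.62 CPM in wt and at 11.4, 13.8 and 5.99 CPM in knockdown. Their log2 fold changes were 1.13 (SE 0.79) and 1.11 (SE 0.76), and wt replicate 2 exceeded knockdown replicate 3 in both. The microfibril-associated genes Mfap2 and Mfap5 were at or under the floor in most libraries: Mfap2 had at most 1 read in a library, and Mfap5 had reads only in knockdown replicates 1 and 2, with 12 and 5.

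Serpinh1, which codes for the collagen chaperone HSP47, stood at 6.69, 105.5 and 52.8 CPM in wt and at 145, 163 and 78.3 CPM in knockdown, a log2 fold change of 1.23 (SE 0.79). Loxl2, a lysyl oxidase that cross-links collagen IV, stood at 2.42, 37.9 and 23.9 CPM in wt and at 56.7, 48.4 and 31.0 CPM in knockdown, a log2 fold change of 1.08 (SE 0.77). Both kept the library order of the collagens. Lox and Loxl1, the other lysyl oxidase genes among the 49, were scarcely detected. Lox had 0, 3 and 2 reads in wt and 13, 11 and 7 reads in knockdown, and Loxl1 had 2, 0 and 0 reads in wt and 6, 1 and 2 reads in knockdown. No fold is given for either, since the wt libraries were at or under the floor of 3 reads. The Lox libraries did not overlap (exact permutation test, p = 0.1, the smallest that 3 against 3 allows).

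The adhesive and matricellular glycoproteins held both the most abundant and some of the scarcest of the 49 genes. Thbs1 (thrombospondin-1), which binds CD36 and CD47 and activates latent TGF-beta, stood at 28966, 37932 and 31461 CPM in wt and at 20614, 16419 and 29605 CPM in knockdown. Fn1 (fibronectin) stood at 5753, 4186 and 4133 CPM in wt and at 3413, 2400 and 4293 CPM in knockdown. For both, knockdown replicates 1 and 2 were the lowest libraries and knockdown replicate 3 was within the wt range, the opposite of the collagens. The log2 fold changes were -0.56 (SE 0.27) for Thbs1 and -0.48 (SE 0.25) for Fn1, with adjusted p of 0.338 and 0.356 in edgeR with Benjamini-Hochberg adjustment. Thbs1 averaged 4630 FPKM and Fn1 469 FPKM, against 5.55 FPKM for the related Thbs2, which followed the collagens with a log2 fold change of 0.92 (SE 0.82).

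Sned1, a matrix glycoprotein related to nidogen, stood at 1.63, 10.1 and 10.2 CPM in wt and at 24.0, 21.4 and 16.4 CPM in knockdown. Every knockdown library was above every wt library, with means of 20.6 ± 3.84 and 7.31 ± 4.92 CPM (SD, n = 3 each). The log2 fold change was 1.49 (SE 0.58), with an adjusted p of 0.328 in edgeR after Benjamini-Hochberg adjustment, and 1.02 (SE 0.19, adjusted p 0.406) without wt replicate 1. DESeq2 without wt replicate 1, a fit added after the data were seen, gave 0.99 (SE 0.22) with a Benjamini-Hochberg adjusted p of 0.00416, and Sned1 was the only one of the 49 genes it called higher (0.167% of all genes). Exons of Sned1 (chr1:93235841-93301065, plus strand) overlap those of Mterf4 and Mir6901. Of the remaining genes of the group, Ccn1, an immediate early YAP target, and Sparc, a collagen-binding glycoprotein, had log2 fold changes of 1.23 and 0.98 and followed the collagens. Postn, Tnc and Ccn2, all common markers of activated fibroblasts, averaged 0.11, 0.0416 and 0.118 FPKM and showed no order of libraries that matched the collagens.

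The secreted binding proteins all had estimates above 0. Igfbp4, which binds insulin-like growth factors, stood at 40.6, 264 and 154 CPM in wt and at 336, 297 and 190 CPM in knockdown, a log2 fold change of 0.84 (SE 0.57). Serpinf1, which codes for the antiangiogenic factor PEDF, stood at 4.92, 58.1 and 37.3 CPM in wt and at 88.1, 78.6 and 47.3 CPM in knockdown, a log2 fold change of 1.09 (SE 0.71). Fstl1 (1.20) and Igfbp7 (0.72) completed the group, and for none of its 4 genes did the groups separate. Exons of Igfbp7 overlap those of Polr2b.

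The PDGF receptors, which mark fibroblasts (Pdgfra) and mural cells (Pdgfrb), had a median log2 fold change of 0.59. Pdgfra stood at 1.46, 20.1 and 11.9 CPM in wt and at 22.3, 20.0 and 14.2 CPM in knockdown, a log2 fold change of 0.76 (SE 0.73) that was 0.23 (SE 0.26) without wt replicate 1. Pdgfrb stood at 1.29, 6.74 and 3.42 CPM in wt and at 6.46, 5.27 and 3.56 CPM in knockdown, a log2 fold change of 0.42 (SE 0.55) that was 0.0030 (SE 0.36) without wt replicate 1. For Pdgfrb, wt replicate 2 was the highest library, above every knockdown library. For Pdgfra, wt replicate 2 was level with knockdown replicate 2 and above knockdown replicate 3.

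The contractile genes split. Cald1 (caldesmon) and Tpm1 (tropomyosin-1), which bind actin filaments in many cell types, ran with the collagens, whereas Acta2 (smooth muscle actin) and Cnn2 (calponin-2) ran the other way. Cald1 stood at 5.79, 82.4 and 66.5 CPM in wt and at 154, 159 and 95.3 CPM in knockdown, without overlap, and its log2 fold change was 1.40 (SE 0.76) and 0.86 (SE 0.23) without wt replicate 1. Tpm1 stood at 23.8, 94.5 and 65.6 CPM in wt and at 133, 150 and 88.1 CPM in knockdown, and its log2 fold change was 1.02 (SE 0.45). Here too wt replicate 2 lay above knockdown replicate 3 in Tpm1. Tpm2 had a log2 fold change of 1.19 (SE 0.86).

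Acta2 (chr19:34241090-34255590, minus strand) stood at 11.8, 12.0 and 8.47 CPM in wt and at 7.81, 6.13 and 6.84 CPM in knockdown. All 3 knockdown libraries lay below all 3 wt libraries, with means of 6.93 ± 0.841 and 10.8 ± 1.98 CPM (SD, n = 3 each). The log2 fold change was -0.63 (SE 0.22), with an adjusted p of 0.328 in edgeR after Benjamini-Hochberg adjustment and an exact permutation p of 0.1, and it was -0.57 (SE 0.22) without wt replicate 1. Cnn2 stood at 273, 171 and 190 CPM in wt and at 152, 138 and 185 CPM in knockdown, with wt replicate 1 the highest library, and its log2 fold change was -0.41 (SE 0.20). Tagln and Myl9, which like Acta2 belong to the smooth muscle program, averaged 0.307 and 0.228 FPKM with log2 fold changes of -0.30 (SE 0.73) and 0.49 (SE 0.81). Cnn1 had 3 reads in wt replicate 2, 1 read in knockdown replicate 2 and none elsewhere.

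**Figure D3:**
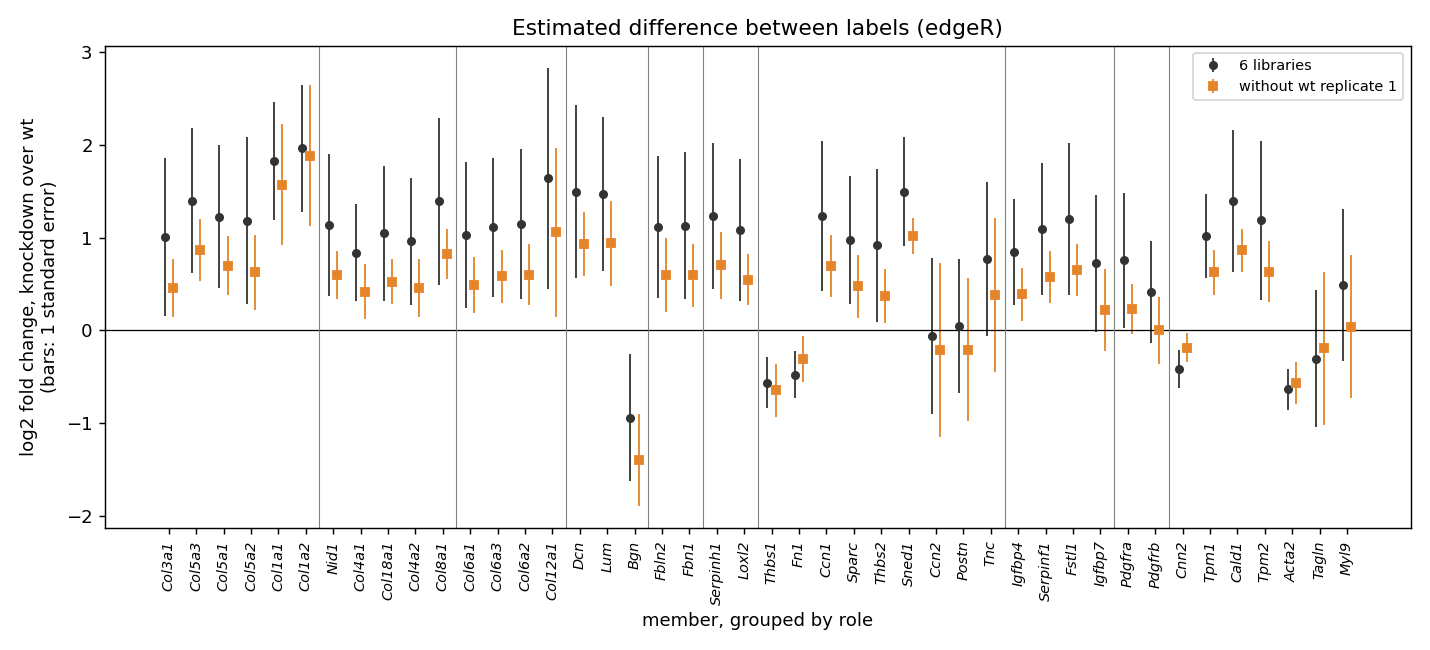
Log2 fold change of knockdown over wt for the 44 tested genes from edgeR, with all 6 libraries (black circles) and without wt replicate 1 (orange squares). Bars are 1 standard error. Most estimates lie above 0 with wide bars that narrow without wt replicate 1, and 7 genes lie below 0 (Bgn, Thbs1, Fn1, Ccn2, Cnn2, Acta2 and Tagln).

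Ratios within a library show how tightly the genes moved together. The summed fibrillar collagens stood at 24.9, 514 and 293 CPM in wt and at 745, 613 and 377 CPM in knockdown, a spread of 2.54-fold over the 5 libraries other than wt replicate 1. Over those 5 libraries, 30 of the 44 genes kept their ratio to this sum within 2-fold, against 14.7% of all genes tested. Outside the fibrillar collagens, which are part of the sum, the count was 26 of 38. The limit of 2-fold was chosen after the values were seen. Col6a1 was 16.7% and 17.7% of the fibrillar sum in wt replicates 2 and 3 and 16.2%, 17.4% and 16.7% in the knockdown libraries. Loxl2 was 7.38% and 8.15% in wt and 7.61%, 7.89% and 8.22% in knockdown. Serpinf1 was 11.3% and 12.7% in wt and 11.8%, 12.8% and 12.6% in knockdown. These 3 genes sit on different chromosomes and code for a filament chain, an enzyme and a secreted inhibitor, and they kept the same proportion to the fibrillar collagens in libraries of both labels.

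In wt replicate 1, where the fibrillar sum was 16.2-fold below the mean of the other wt libraries, the same ratios were 20.3% for Col6a1, 9.72% for Loxl2 and 19.8% for Serpinf1. Igfbp4, Col4a1 and Tpm1 deviated more. Igfbp4 was 163% there against 45.1% to 52.5% in the other libraries, Col4a1 73.2% against at most 19.8%, and Tpm1 95.7% against 17.9% to 24.5%. The chain ratios within collagen VI also held: Col6a1 to Col6a2 per length was 3.63, 3.30 and 3.60 in wt and 3.22, 3.00 and 3.28 in knockdown. The collagen IV chain ratio, Col4a1 to Col4a2, was between 1.71 and 1.91 in 5 libraries and 3.74 in wt replicate 1.

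The 14 genes outside the 2-fold limit were Col1a1, Col1a2, Col12a1, Bgn, Fn1, Thbs1, Tnc, Postn, Ccn2, Sned1, Acta2, Tagln, Myl9 and Cnn2. Fn1 was 815% and 1408% of the fibrillar sum in wt replicates 2 and 3 and 458%, 391% and 1140% in knockdown. Acta2 was 2.34% and 2.89% in wt and 1.05%, 1.00% and 1.82% in knockdown. Their ratios were lowest in knockdown replicates 1 and 2, which held the most collagen. The fibrillar sum is the divisor of the ratio, so a gene of constant CPM would also be lowest there. Sned1 was just outside, with a spread of 2.21-fold, and Lum was just inside, with 1.84-fold.

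**Figure D4:**
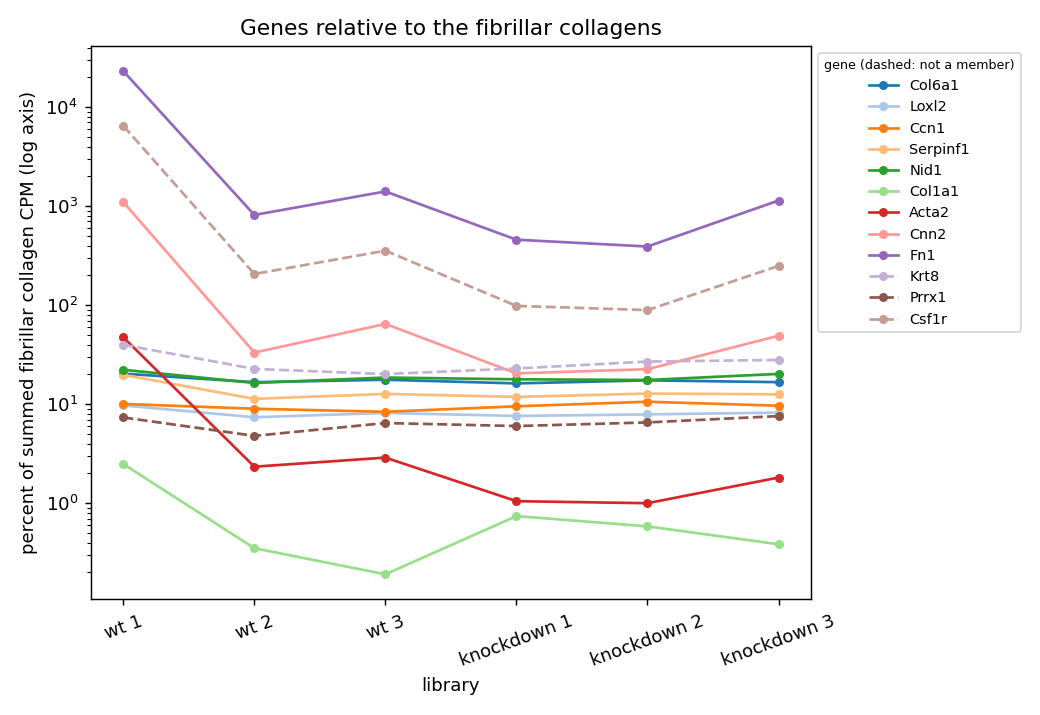
Level of 9 of the 49 genes (solid lines) and of 3 further genes (dashed: Krt8, Prrx1 and Csf1r) as a percentage of the summed fibrillar collagen CPM of the same library (log axis), in the 6 libraries. Col6a1, Loxl2, Ccn1, Serpinf1 and Nid1 run nearly flat over the 5 libraries other than wt replicate 1, as do Krt8 and Prrx1. Fn1, Cnn2 and Csf1r are lowest in knockdown replicates 1 and 2, where the sum that divides them is highest.

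Genes of the same pathways that are not among the 49 were read from the same fit. Neither edgeR nor DESeq2 called any of them. Over all genes tested, 52.1% had estimates above 0 and 14.7% were within the 2-fold limit. At an unadjusted p under 0.05 in edgeR, 6.9% of all genes were higher and 8.31% lower. Of the collagen processing genes, 21 of 26 were tested, with 17 estimates above 0, a median log2 fold change of 0.72, 14 within the 2-fold limit, and 2 higher and 1 lower at an unadjusted p under 0.05. Of the other matrix glycoproteins and proteoglycans, 31 of 47 were tested, with 23 estimates above 0, a median of 0.84, 14 within the limit, and 2 higher and 3 lower at that p. Of the other collagens, 10 of 30 were tested, with 5 estimates above 0, 5 below and a median of 0.0031. Of these 10, 2 were within the limit and none was past that p in edgeR. Of the other contractile and SRF target genes, 18 of 24 were tested, with 7 estimates above 0 and a median of -0.07. Of these 18, 4 were within the limit, and 1 was higher and 2 were lower at that p. Myh11, the smooth muscle myosin, had at most 6 reads in a library.

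Cell type markers bear on what these genes should be called. Of 20 fibroblast markers outside the 49 genes, 15 were tested and 13 had estimates above 0, with a median log2 fold change of 1.22 (0.72 without wt replicate 1). Of these 15 markers, 8 were within the 2-fold limit and 6 were higher in every knockdown library than in every wt library (13.3% of all genes). Their summed level, to which Pdpn and Pi16 gave the most, was 215 to 335 CPM in wt and 299 to 362 CPM in knockdown. Pdpn and Pi16 themselves did not follow the collagens and were outside the 2-fold limit, with spreads of 2.91-fold and 4.40-fold. Pdpn was 398% of the fibrillar sum in wt replicate 1 and 11.9% to 34.5% in the other libraries. Pi16 was 399% of it in wt replicate 1 and 4.00% to 17.6% in the others. The ratio of Pi16 was lowest in knockdown replicates 1 and 2, where the sum itself was highest. Twist1, a mesenchymal transcription factor, had 11, 415 and 286 reads in wt and 793, 696 and 356 reads in knockdown. Prrx1, another such factor, had 65, 873 and 708 reads in wt and 1761, 1681 and 1044 reads in knockdown. Wt replicate 1 was the lowest library for both. Some defining fibroblast genes were scarce: collagen I as above, and Fap with 2, 10 and 12 reads in wt and 20, 39 and 27 reads in knockdown. The epithelial or carcinoma markers were split. Krt8, a keratin of simple epithelia and carcinomas, stood at 9.90, 117 and 59.1 CPM in wt and at 171, 165 and 105.5 CPM in knockdown, and was 20.1% to 28.0% of the fibrillar sum in the 5 libraries other than wt replicate 1. Krt18, its partner keratin, had 33, 226 and 143 reads in wt and 264, 296 and 183 reads in knockdown. Krt7 and Cdh1, in contrast, were highest in wt replicate 1, and Cdh1 (E-cadherin) had 865, 499 and 620 reads in wt and 538, 395 and 665 reads in knockdown. Of the 12 markers on this list 4 were tested, with 2 estimates above 0 and 2 below, a median log2 fold change of 0.17 and 2 within the 2-fold limit. Their summed level, mostly Krt8 outside wt replicate 1, was 36.1 to 138 CPM in wt and 129 to 192 CPM in knockdown, and Epcam had at most 30 reads in a library. Which cells the 49 transcripts came from was not tested, and the genes are named here by what they code for.

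Macrophage markers ran the other way: 14 of 14 had estimates below 0, with a median log2 fold change of -0.52, 7 were lower at an unadjusted p under 0.05 (8.31% of all genes), 8 were lower without overlap (12.6% of all genes), and none was within the 2-fold limit. Their summed level was 17177 to 22944 CPM in wt, highest in wt replicate 1, and 10283 to 17042 CPM in knockdown. Endothelial markers summed to 36.0 to 49.2 CPM in wt and 35.9 to 41.7 CPM in knockdown, mostly from Pecam1, whose estimate was -0.32. Of the 11 tested, 8 estimates were above 0, with a median log2 fold change of 0.71. Wt replicate 1 was the lowest library for 8, and 2 were within the 2-fold limit (14.7% of all genes). Pericyte markers summed to 1.49 to 7.44 CPM in wt and 3.13 to 6.77 CPM in knockdown. Estimates were above 0 for 4 of 6, with a median log2 fold change of 0.58, and 1 of the 6 was within the 2-fold limit. The part of these other cells in the levels of the 49 genes was not tested.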

How the data were processed

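RNA-seq libraries from LLC tumors, labelled wt (n = 3) and knockdown (n = 3), were grouped by their GEO labels. Raw counts for each gene and FPKM values were deposited by the authors, and the FPKM column follows from the raw count, a fixed gene length and the library total alone. The labels name the build mm10, and the aligner, counter, annotation and strand setting are not given in the sources used here. Counts were tested in edgeR 4.0.16 (R 4.3.3) by its quasi-likelihood functions after filterByExpr and TMM scaling, with Benjamini-Hochberg adjustment across all 13884 genes and a threshold of 0.05. The SE of an estimate was taken from its size and its F statistic (size over root F). The scripts were tested on simulated data. DESeq2 1.42.0 and limma 3.58.1 (on log2 of FPKM plus 1 or 0.1) were alternatives. The labels call the libraries biosamples and do not name mice, so that p-values measure the spread between these libraries, which may be technical. Replicates of 1 label differed by more than sampling noise (chi-square of 33.6 to 151 per gene).

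The 49 genes and the further lists were chosen with earlier results of these data known. Values in every library were given for Npm1, for the 2 genes of each role with the highest mean CPM and for the 5 genes with the smallest p, and further genes were named where a count of 5 or fewer or a pattern asked for them, after their values were seen. Coordinates are those of GRCm38 in GENCODE, matched by symbol, and promoters those of RefSeq on GRCm38.p6.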

Additional observations from a re-analysis of the deposited data

How the results depend on the processing

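None of the 49 genes was called by edgeR under any scaling (TMM, RLE, upper quartile), either filter or any library left out. DESeq2 called 36 genes of the table and none of the 49, and DESeq2 without wt replicate 1, added after seeing the data, called 78 genes and 1 of the 49 (Sned1). The count of the 49 genes at an unadjusted p under 0.05, 4 of 44 as reported (15.2% of all genes), was 11 of 49 with no filter on low counts (13%), 7 of 49 with DESeq2 (11%), 11 of 44 with limma (FPKM plus 1, log2; 20%) and 7 of 44 with limma (FPKM plus 0.1, log2; 18.7%). It was 1 to 19 with a library left out: 13 of 45 without wt replicate 1 (12.2%), 19 of 45 without wt replicate 2 (18.8%), 2 of 45 without wt replicate 3 (16.8%), and 1 of 44 without knockdown replicate 1 (5.49%) or 2 (4.75%). The count without overlap between labels in either direction, 4 of 44 as reported, was 4 to 39 with a library left out. Of 45 genes tested, it was 7 without wt replicate 1, 39 without wt replicate 2 and 36 without knockdown replicate 3. In the higher direction alone the counts were 4 (16.6% of all genes), 37 (23.1%) and 32 (26.9%). The share of all genes in either direction was not computed. The median log2 fold change, 1.06 as reported, was 1.64 with limma (FPKM plus 0.1, log2), where the median of all genes shifted to 0.16, and 0.58 to 1.83 with a library left out, the lowest without wt replicate 1 and the highest without wt replicate 2. The cause was not tested beyond these settings. None of the 26 genes that the rule gave a value in every library, Npm1 included, changed the sign of its estimate or its call in edgeR, limma or DESeq2 under any planned setting that tested it. The replicate numbers did not pair the libraries (correlation of deviations -0.24, 0.06 and -0.34), and a replicate block gave 0 genes called, 5 of the 49 at an unadjusted p under 0.05 and a median of 1.49. Depth limits Col1a1, Col1a2, Col12a1, Bgn, Lox, Loxl1, Mfap2, Mfap5, Postn, Tnc, Ccn2, Tagln, Myl9 and Cnn1, which had few reads.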

Other observations

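Markers of other stromal tissue did not follow the collagens. The summed level of 8 adipocyte markers was 7.34 to 10.1 CPM and that of 8 skeletal muscle markers 4.45 to 6.07 CPM over the 6 libraries, and the labels overlapped in both. The summed level of Schwann cell markers was 95.8 to 183 CPM, with 183 CPM in wt replicate 1, the library lowest in collagen.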
